A study of Mus musculus with 4 samples.

Results

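The genes described here are those of hepcidin and liver iron handling, a set of 9 comprising the hormone Hamp, the transport genes Trf, Tfrc and Slc40a1, the storage genes Fth1 and Ftl1, and the genes Hpx, Cp and Hfe. A probe was taken for a gene when the files gave the gene's symbol in brackets or its RefSeq accession. By that rule 8 of the 9 genes had a probe, 1 each, among 20094 genes and unnamed probes tested. Hpx was matched through its older symbol, Hpxn, and Fth1 had no probe. Liver RNA came from male mice of a polygenic obese line on day 14 of feeding, with either trans-10, cis-12 conjugated linoleic acid (CLA) or, in control mice, linoleic acid as 1% of the diet. Neither age nor genotype beyond that line is stated. Each of 4 two-colour Agilent arrays held RNA pooled from 4 or 5 CLA-fed mice against RNA pooled from 4 or 5 control mice. Arrays 1 and 2 carried CLA in red (Cy5), and arrays 3 and 4 carried it in green (Cy3). Whether any arrays shared a pool is not stated, so p-values measure only the spread between arrays, which may be technical.

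Hepcidin, the product of Hamp, is a peptide hormone that hepatocytes secrete into blood. It binds ferroportin, the iron exporter encoded by Slc40a1, and causes its degradation, so that less iron leaves gut cells, macrophages and hepatocytes. Hepatocytes adjust Hamp transcription to iron through bone morphogenetic protein (BMP) receptors and SMAD factors, with HFE and transferrin receptor 2 as sensors, and to inflammation through interleukin 6 and STAT3. Ferritin mRNA and transferrin receptor mRNA are also controlled after transcription, by iron regulatory proteins that act on translation of the first and on stability of the second. An array measures mRNA only.

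The BMP and STAT3 inputs to Hamp act through elements close to its start site. The promoters of Hamp and of its neighbour Hamp2 are shown because a change in Hamp mRNA would be read against those inputs. The promoter of Hamp2 is similar in sequence. The windows are the 250 bases before each RefSeq start site, on the minus strand of GRCm38.p6, at chr7:30944030-30944279 for Hamp and chr7:30924182-30924431 for Hamp2. Capitals mark matches, on either strand, to the BMP response element letters GGCGCC and to the STAT element letters TTCTTGGAA, which do not overlap.
Hamp: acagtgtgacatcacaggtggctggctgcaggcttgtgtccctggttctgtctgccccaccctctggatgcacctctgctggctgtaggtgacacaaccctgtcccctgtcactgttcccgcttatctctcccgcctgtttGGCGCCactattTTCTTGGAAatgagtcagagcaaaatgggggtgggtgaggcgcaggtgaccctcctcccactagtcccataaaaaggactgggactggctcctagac
Hamp2: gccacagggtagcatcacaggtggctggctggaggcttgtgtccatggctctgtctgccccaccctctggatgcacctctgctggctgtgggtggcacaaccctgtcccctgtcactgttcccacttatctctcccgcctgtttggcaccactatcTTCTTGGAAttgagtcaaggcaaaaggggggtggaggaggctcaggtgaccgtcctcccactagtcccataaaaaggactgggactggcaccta
The windows were 89.7% identical over 253 aligned columns. In Hamp the BMP element lay 109 to 104 bases and the STAT element 97 to 89 bases before the start site. Hamp2 held the STAT element 94 to 86 bases before its start site. It differed from the BMP element by 1 substitution, G4A, counted from the first base of GGCGCC. Of 32851 promoter windows of this length in the RefSeq table, 9.59% held GGCGCC and 0.365% held TTCTTGGAA. The looser STAT element letters TTCNNNGAA, with N any base, were held by 7.02%. In Hamp and in Hamp2 the 1 match to these looser letters was the TTCTTGGAA site. A match of letters does not show that a factor binds there. No probe for Hamp2 was found under its symbol, and the Hamp probe may bind transcripts of both genes.

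The question of the comparison is which liver genes CLA changed. None of the 8 iron-handling genes was called at a limma adjusted p under 0.05, a threshold that 0.0697% of all genes passed, 0.0348% higher and 0.0348% lower. At an unadjusted limma p under 0.05, 2 of the 8 stood higher with CLA (Ftl1 and Trf), against 8.75% of all genes, and 2 stood lower (Hamp and Hfe), against 7.16%. Both directions together made 4 of the 8, beside 15.9% of all genes. The median diet effect of the 8 genes was 0.09 (log2 CLA over control), beside 0.0059 over all genes. Diet effects are log2 ratios of normalized intensity, CLA over control, fitted with a separate dye effect for each gene, and errors are standard errors of that fit over 4 arrays.

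For 7 of these 8 genes, all but Tfrc, the dye moved the ratio further from 0 than the diet did. The sign of CLA over control as measured differed between the 2 dye orientations for 5 of the 8, namely Hamp, Trf, Slc40a1, Ftl1 and Hfe, beside 43.1% of all genes. Tfrc was the 1 member above 0 as measured on all 4 arrays, beside 4.59% of all genes, but both of its channels were well above background on array 2 alone, so its sign on the other arrays is set against a channel near background. In the other direction, 0 members were below 0 on all 4, beside 4.72%. On the same side of 0 on all 4, in either direction, were 9.31% of all genes. The dye effect also differed in size between arrays, its slope on the mean dye profile being 0.783 (array 1), 0.734 (array 2), 1.18 (array 3) and 1.29 (array 4). These slopes split by dye orientation, and diet and dye effects had r = -0.525 across genes, which are not independent replicates and share these 4 arrays. A dye effect of unequal size and a diet effect that follows the dye effect cannot be told apart in this design. In the plot of diet against dye effects, Hamp, with a dye effect of 0.89, and Ftl1, with one of -0.84, followed this diagonal. Diet effects are therefore also given at equal dye size, that is, with the dye effect scaled to the same size on all arrays. This scaling brings that r near 0 by construction (0.0021). It would also remove a diet effect that follows the dye effect. In that version 0 genes were called by limma (0%). At an unadjusted limma p under 0.05, 1 of the 8 genes, Ftl1, was then higher, beside 4.74% of all genes, and 0 were lower, beside 4.75%, or 9.49% in either direction (1906 genes).

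**Figure D1:**
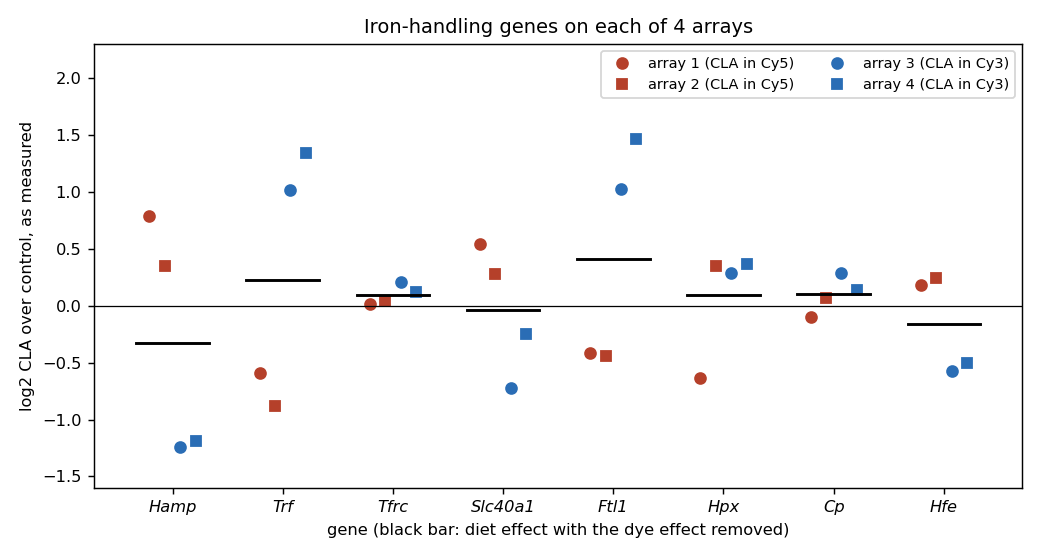
Log2 CLA over control as measured, before the dye effect was removed, for the 8 iron-handling genes (x axis). Each point is 1 array, red with CLA in Cy5 and blue with CLA in Cy3, and each black bar is the fitted diet effect. Points of Hamp, Trf, Slc40a1, Ftl1 and Hfe lie on opposite sides of 0 in the 2 dye orientations, while Tfrc lies above 0 on all 4 arrays, with both channels well above background on array 2 alone.

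**Figure D2:**
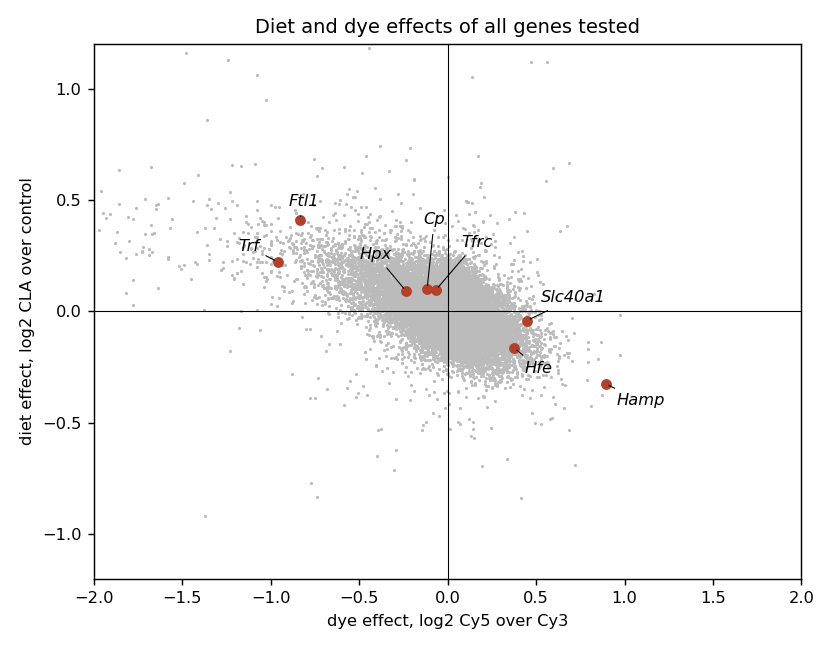
Diet effect (y axis, log2 CLA over control) against dye effect (x axis, log2 Cy5 over Cy3) of all genes tested, 1 grey point each, with the 8 iron-handling genes in red. The cloud slopes downward, with Hamp toward its lower right and Ftl1 toward its upper left. A further 51 genes lie outside the axes.

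Hamp was a bright spot on every array. Its mean foreground intensity was 32308 with CLA against 28220 in control on array 1 and 24121 against 29109 on array 2. On array 3 it was 15425 against 65503, where the control spot was saturated, and on array 4 it was 14212 against 28382. Local background was 288 to 327 in the CLA channel and 293 to 328 in the control channel. In every pair the CLA signal was therefore far above background, and it was below the control signal on 3 of 4 arrays before dye normalization. These intensities are not corrected for the brightness of each channel, so that count gives no direction of a diet effect. On array 2 log2 CLA over control of Hamp was 0.35 once normalized.

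After normalization, log2 CLA over control of Hamp as measured was 0.78 on array 1 and 0.35 on array 2. It was -1.19 on array 4. On array 3 it was -1.24, which is an upper bound because the control spot was saturated. The arrays with CLA in Cy5 were thus both above 0 and those with CLA in Cy3 both below. With the gene's dye effect removed, the values were -0.11, -0.54, -0.35 and -0.30 on arrays 1 to 4, all below 0. The saturated spot was taken at its value here and in the fit. That removal makes the arrays of each orientation average to the fitted diet effect, so the shared sign is partly built in. The diet effect was -0.32 ± 0.08 (SE, 95% interval -0.51 to -0.14), a level 0.798 times that of control (limma adjusted p = 0.154). Normalized log2 levels of Hamp were 14.52 ± 0.67 with CLA and 14.85 ± 0.44 in control (SD, n = 4), so the difference was within the spread between arrays when dyes were mixed.

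Once the dye effect was made equal in size, the diet effect of Hamp was -0.11 ± 0.08 (SE, 95% interval -0.29 to 0.07, limma adjusted p = 0.614). With a separate dye effect per gene as before, it was -0.22 without array 2 and -0.31 without array 3, the array with the saturated spot. With median centring in place of loess it was -0.61 (limma adjusted p = 0.0141), the only setting in which Hamp was called.

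**Figure D3:**
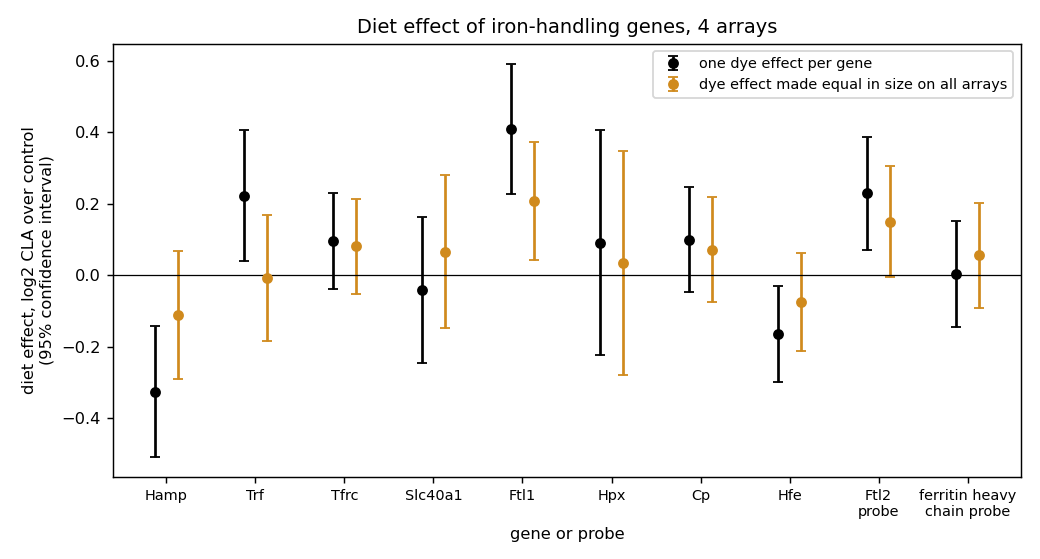
Diet effect (y axis, log2 CLA over control) with 95% confidence intervals for the 8 iron-handling genes and 2 further ferritin probes, over 4 arrays. Black points use 1 dye effect per gene, and orange points a dye effect made equal in size on all arrays. Among the black intervals of the 8 genes, those of Hamp, Trf, Ftl1 and Hfe exclude 0, and among the orange ones only that of Ftl1 does.

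Of the storage genes, Ftl1, which encodes the ferritin light chain, had the smallest p of the 8. Ferritin stores iron in a shell of light and heavy chains, and the light chain aids formation of the iron core. Log2 CLA over control of Ftl1 as measured was -0.41 on array 1 and -0.44 on array 2. It was 1.03 on array 3 and 1.46 on array 4. The 2 orientations again lay on opposite sides of 0, and the values with the dye effect removed, 0.42, 0.39, 0.19 and 0.63, were all above 0. As for Hamp, each orientation then averages to the fitted diet effect, so this shared sign is partly built in. The diet effect was 0.41 ± 0.08 (SE, 95% interval 0.23 to 0.59), a 1.33-fold level with CLA (limma adjusted p = 0.0991). At equal dye size it was 0.21 ± 0.07 (SE, 95% interval 0.04 to 0.37, limma adjusted p = 0.525). It was called only without array 3, at 0.52 (limma adjusted p = 0.0431). With median centring it was 0.15 (limma adjusted p = 0.528), and with an equal spread of log2 ratios on every array 0.27.

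Other ferritin probes lay outside the rule and were found by their descriptions. A probe for ferritin light chain 2, Ftl2, now listed as a pseudogene and a near-identical copy of Ftl1, can bind transcripts of either. As measured it stood at -0.25, 0.05, 0.56 and 0.57 on arrays 1 to 4, and its diet effect was 0.23 ± 0.07 (SE, limma adjusted p = 0.196). It lay on the same side of 0 as Ftl1 with a dye effect of -0.33, smaller in size than the -0.84 of Ftl1, and stood at 0.15 ± 0.07 with the dye effect of equal size (limma adjusted p = 0.526). A probe described as ferritin heavy chain, whose product oxidizes iron for storage, carried no symbol or RefSeq accession and was not used for Fth1. It was dim, with foreground intensities of 360 to 443 with CLA and 374 to 427 in control against local backgrounds of 284 to 320. Its diet effect was 0.0040 ± 0.06 (SE, 95% interval -0.14 to 0.15), smaller than its error (limma adjusted p = 0.981).

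Among the transport genes, Trf encodes transferrin, the plasma carrier of iron that hepatocytes secrete. As measured it stood at -0.59 and -0.88 on arrays 1 and 2. On arrays 3 and 4 it stood at 1.02 and 1.35, on the other side of 0. Its diet effect was 0.22 ± 0.08 (SE, 95% interval 0.04 to 0.40, limma adjusted p = 0.247). At equal dye size it was -0.0082 ± 0.08, and with median centring -0.07, so the direction depended on how the dye was treated. Trf had the largest dye effect in size of the 8 genes, -0.96.

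Tfrc, the receptor that takes up iron-loaded transferrin, was close to background. Its foreground intensity was 332 to 403 with CLA and 336 to 357 in control, against local backgrounds of 283 to 324 and 288 to 312. It was well above background with CLA on arrays 2, 3 and 4 and in control on arrays 1 and 2. As measured it stood at 0.02, 0.04, 0.21 and 0.12 on arrays 1 to 4, all above 0. The diet effect was 0.10 ± 0.06 (SE, 95% interval -0.04 to 0.23, limma adjusted p = 0.428), and 0.08 at equal dye size. It ranged from 0.02 without background subtraction to 0.33 with the scanner's processed signals.

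Slc40a1, which encodes ferroportin, the only known iron exporter of mammalian cells and the target of hepcidin, is labelled in the files with the older symbol Slc39a1 and was matched by its accession. As measured it stood at 0.54 and 0.27 on arrays 1 and 2. It stood at -0.72 and -0.25 on arrays 3 and 4, so both orientations differed in sign. The diet effect was -0.04 ± 0.09 (SE, n = 4 arrays, 95% interval -0.25 to 0.16, limma adjusted p = 0.835), and 0.07 ± 0.09 at equal dye size. Ferroportin in liver is abundant in macrophages. Of 12 markers of Kupffer cells and macrophages, 9 were tested and 0 passed at an unadjusted limma p under 0.05, beside 15.9% of all genes. At equal dye size it was also 0, beside 9.49%. The summed level of those markers was 4053 to 4813 with CLA and 3255 to 5176 in control. With CLA it was below control on arrays 1, 2 and 3 and above it on array 4 (4642 against 3255). In a tissue sample, fewer cells of a type and less RNA per cell cannot be told apart.

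Hfe, the sensor protein mutated in hereditary hemochromatosis, stood at 0.18 and 0.25 as measured on arrays 1 and 2. On arrays 3 and 4 it stood at -0.57 and -0.50. Replicates of an orientation lay close together, and the diet effect was -0.16 ± 0.06 (SE, 95% interval -0.30 to -0.03, limma adjusted p = 0.248). At equal dye size it was -0.07 ± 0.06 (95% interval -0.21 to 0.06).

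Cp encodes ceruloplasmin, a copper-containing plasma ferroxidase that helps iron bind transferrin. It stood at -0.10, 0.06, 0.29 and 0.14 as measured on arrays 1 to 4, and its diet effect was 0.10 ± 0.06 (SE, 95% interval -0.05 to 0.25, limma adjusted p = 0.449). Cp had 1 of the smaller dye effects, -0.12, and the 2 versions of the diet effect, 0.10 and 0.07, lay close together. With median centring it stood at -0.16.

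Hpx encodes hemopexin, a plasma protein that binds free heme and brings it to the liver. As measured it stood at -0.63 on array 1 and at 0.34, 0.29 and 0.37 on arrays 2, 3 and 4. Array 1 was thus the exception, and the 3 other arrays agreed across both dye orientations. The diet effect over all arrays was 0.09 ± 0.14 (SE, n = 4 arrays, 95% interval -0.22 to 0.40, limma adjusted p = 0.752), and 0.03 ± 0.13 at equal dye size. Without array 1 it was 0.34 ± 0.07 (limma adjusted p = 0.116), and without array 2 it was -0.15. Hpx was the only one of the 8 genes in the authors' deposited table of significant genes, at a ratio of 1.25 and a p-value of 0.00028 from a test that the sources used here do not describe. Its values in the deposited series matrix, on the log2 scale and as CLA over control, were -0.657, 0.347, 0.289 and 0.351, with array 1 on the other side of 0 there too.

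Acute phase genes, which the liver raises in inflammation and to which Hpx, Hp and Hamp belong, also set array 1 apart. Of 16 acute phase genes tested, 15 were lower in CLA over control on array 1 than on array 2, which had the same dye orientation, beside 51.9% of all genes. The difference of array 1 from array 2 was -0.979 for Hpx and -0.933 for Hp, haptoglobin, which binds free hemoglobin. It was -1.21 for Orm1, an orosomucoid, and -3.36 for Saa1, a serum amyloid. For Hamp it ran the other way, at 0.434, and for Cp it was -0.165. The median absolute difference between these arrays over all genes was 0.137. The summed level of the 16 acute phase genes was 285655 in the control sample of array 1 and 89516 to 100513 in the control samples of the others. With CLA it was 82243 to 161608. The part of this in the Hpx value was not tested.

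**Figure D4:**
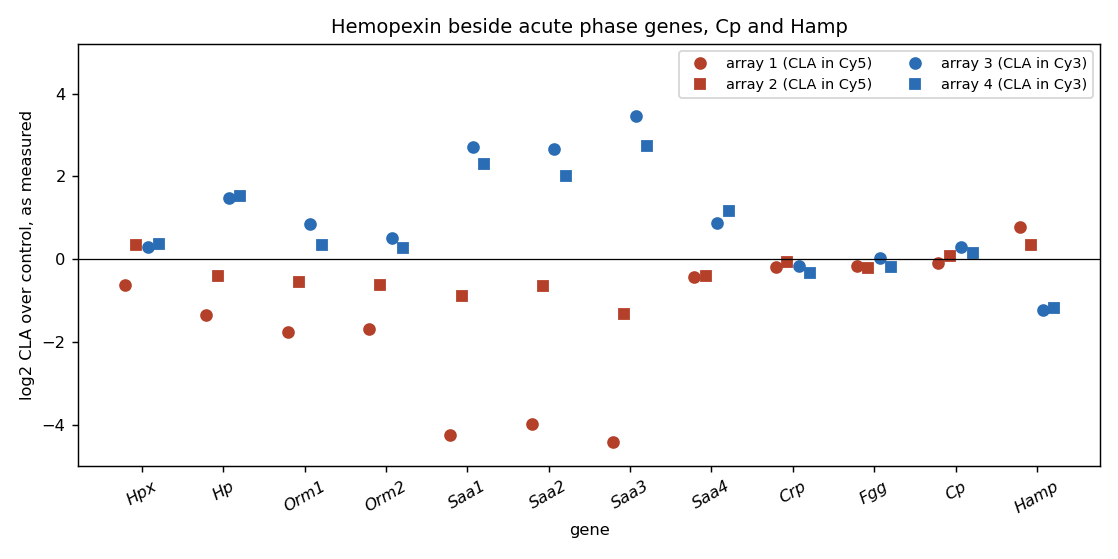
Log2 CLA over control as measured (y axis) for Hpx, 9 acute phase genes, Cp and Hamp (x axis), 1 point per array, red with CLA in Cy5 and blue with CLA in Cy3. Array 1 (red circles) lies below array 2 (red squares) for Hpx, Hp, Orm1, Orm2, Saa1, Saa2 and Saa3, and above it for Hamp.

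Other genes of iron biology were read from the same fit. Their list counts at an unadjusted p stand beside 8.75% of all genes higher and 7.16% lower, or, at equal dye size, 4.74% higher and 4.75% lower. Genes that control Hamp in hepatocytes were measured beside it. Of 25 on this list 19 were tested and 0 were called. At an unadjusted limma p under 0.05, 5 stood higher and 1 lower, and the list's median was 0.03. At equal dye size 3 stood higher, namely Cebpa, Bmpr2 and Atoh8, and 0 lower. Cebpa, a liver transcription factor that activates Hamp, stood at 0.32 ± 0.06 (SE, limma adjusted p = 0.0937), and at 0.14 with the dye effect of equal size. Smad5, which carries the BMP signal to the nucleus, stood at 0.20 ± 0.06 (adjusted p = 0.193), and Bmpr2, a BMP receptor, at 0.17 ± 0.06 (adjusted p = 0.237). Both stood at 0.13 at equal dye size. Atoh8 had a small dye effect, 0.03, and stood at 0.17 ± 0.07 (adjusted p = 0.308), and at 0.18 at equal dye size. As measured Atoh8 stood at 0.02, 0.38, 0.10 and 0.20 on arrays 1 to 4. Of the iron sensors and BMP co-receptors, Tfr2 stood at -0.05 ± 0.06 and Hjv, hemojuvelin, at 0.13 ± 0.06. Tfr2 stood at -0.04 and Hjv, on the other side of 0, at -0.01 at equal dye size. Smad7, an inhibitor of the SMAD signal, stood at -0.17 ± 0.06 and Smad6, another, at 0.25 ± 0.10. Smad7 stood at -0.04 and Smad6 at 0.23 at equal dye size. Bmp6, the ligand that reports liver iron to hepatocytes, stood at -0.10 ± 0.07, and at -0.12 at equal dye size. Tmprss6, Id1 and Stat3 had no probe under their symbol.

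The list of iron transport, reduction and sensing had 13 of 22 genes tested, with 0 called and 0 at an unadjusted limma p under 0.05 in either direction. Its median was -0.08. Ncoa4, which delivers ferritin for breakdown, stood at 0.17 ± 0.08, Ftmt, mitochondrial ferritin, at -0.12 ± 0.06, and Lrp1, the receptor for hemopexin bound to heme, at -0.11 ± 0.06 (SE, limma adjusted p = 0.336, 0.359 and 0.393). They stood at 0.06, -0.05 and -0.19 at equal dye size, and Lrp1 was then the 1 gene of the list at an unadjusted limma p under 0.05. Slc11a2, the ferrous iron transporter DMT1, stood at 0.04 ± 0.08, and at 0.03 at equal dye size. A probe described as iron responsive element binding protein, outside the rule, stood at -0.13 ± 0.06 (limma adjusted p = 0.361), and at -0.06 at equal dye size.

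Of 22 genes of heme synthesis, transport and breakdown 15 were tested and 0 were called, with 1 higher and 1 lower at an unadjusted limma p under 0.05 and a median of 0.02. Fech, ferrochelatase, which inserts iron into heme, stood at -0.20 ± 0.06 (SE, limma adjusted p = 0.197), Hp at 0.31 ± 0.13 (adjusted p = 0.305) and Cpox, an earlier enzyme of the pathway, at -0.18 ± 0.08 (adjusted p = 0.322). With the dye effect of equal size they stood at -0.07, 0.02 and -0.04. In that version 0 genes of the list stood higher and 0 lower at the unadjusted threshold, and the list's median was -0.03. Hmox1, heme oxygenase, which releases iron from heme, stood at -0.09 ± 0.11, and also at -0.09 at equal dye size.

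Of 19 genes of iron-sulfur cluster assembly 12 were tested, 0 were called, and 1 stood lower at an unadjusted limma p under 0.05, with a median of -0.04. This was Ciao1, of the cytosolic assembly machinery, at -0.14 ± 0.06 (SE, limma adjusted p = 0.313). Fdx1, a ferredoxin, stood at -0.13 ± 0.06 and Mms19, a cytosolic targeting factor, at 0.11 ± 0.06. At equal dye size Ciao1 stood at -0.10, Fdx1 at -0.08 and Mms19 at 0.09, and 0 genes of the list passed the unadjusted threshold. Of 14 copper genes 6 were tested and 0 were called, and 1 stood higher at an unadjusted limma p under 0.05, Ccs, the copper chaperone of superoxide dismutase, at 0.18 ± 0.06 (adjusted p = 0.229). With the dye effect of equal size Ccs stood at -0.10. Atox1, which hands copper to the ATPase that loads ceruloplasmin, stood at 0.13 ± 0.06 and Slc31a2 at -0.04 ± 0.06, and at equal dye size at 0.14 and -0.05. Atox1 was then the 1 copper gene that stood higher at an unadjusted limma p under 0.05, and 0 stood lower. Of 20 acute phase genes 16 were tested and 0 were called, with 3 higher and 2 lower at an unadjusted limma p under 0.05. With the dye effect of equal size 0 stood higher and 5 lower, namely Orm1 (-0.49), Orm2 (-0.57), Orm3 (-0.47), Socs3 (-0.17) and Crp. Saa4 stood at 0.30 ± 0.07, Itih4 at 0.23 ± 0.07 and Crp at -0.19 ± 0.06 (limma adjusted p = 0.142, 0.212 and 0.228), and with the dye effect of equal size at 0.13, 0.03 and -0.17.

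The named genes most like Hamp over the 4 arrays, by the root mean square difference in log2 CLA over control as measured, were B2m, Inmt and Ehd3, out of 8988 compared. The difference was 0.203 for B2m, 0.209 for Inmt and 0.250 for Ehd3. B2m, the beta-2-microglobulin chain that HFE protein also binds, stood at 0.86, 0.71, -1.08 and -1.26 on arrays 1 to 4. All 3 had positive dye effects, 0.98, 0.81 and 0.69, beside 0.89 for Hamp. The diet effect was -0.19 ± 0.06 for B2m, -0.42 ± 0.07 for Inmt and -0.19 ± 0.08 for Ehd3 (SE, limma adjusted p = 0.227, 0.0651 and 0.315). It was 0.04 for B2m, -0.23 for Inmt and -0.02 for Ehd3 at equal dye size.

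**Figure D5:**
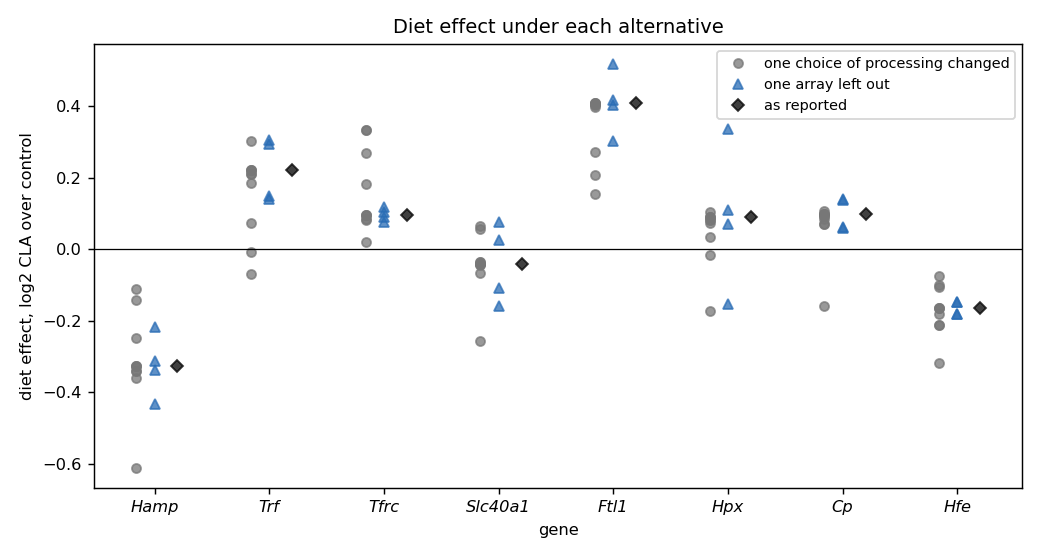
Diet effect (y axis, log2 CLA over control) of each of the 8 iron-handling genes as reported (black diamonds), with 1 choice of processing changed (grey circles) and with 1 array left out (blue triangles). Hamp and Hfe lie below 0 and Ftl1 and Tfrc above 0 under all 14 alternatives, of which 3 repeat the reported values and 1 repeats another. Trf, Slc40a1, Hpx and Cp lie on both sides.

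Per array and channel, 80.3% to 95.8% of spots outside controls were well above background. Of 9 hepatocyte markers 4 were tested, Apoa1, Apoa2, Ttr and Ass1, and all 4 were well above background on at least 2 arrays. Of 14 exocrine pancreas markers 9 were tested. All 9 had diet effects above 0, beside 52.2% of all genes. Their median was 0.33 (0.29 at equal dye size), beside 0.0059 (0.0010) over all genes. At an unadjusted limma p under 0.05, 3 stood higher, beside 8.75% of all genes, and at equal dye size 2 did, beside 4.74%. The summed level of the 9 markers was 6062 in the CLA sample of array 4. It was 2840 to 3069 in the CLA samples of the others and 2701 to 3014 in controls. Trf and Ftl1 had their highest values as measured on array 4, where the dye slope was also steepest, at 1.29. With the dye effect removed, Trf stood at 0.37 on array 1 and 0.39 on array 4, and Ftl1 at 0.42 and 0.63. The diet effects of Trf and Ftl1 were 0.14 and 0.30 without array 4, and 0.15 and 0.40 without array 1. The part of pancreas RNA in them was not tested. Of 10 erythroid markers 7 were tested, with a summed level of 40417 to 70135 with CLA and 38142 to 86950 in control, and Hba-a1, a hemoglobin chain, stood at -0.34 ± 0.27, and at -0.21 at equal dye size.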

How the data were processed

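Per the file headers, the authors' deposited scanner files came from Agilent Feature Extraction A.6.1.1 and hold mean foreground and median background intensity for 22393 spots per array and channel, with flags, processed intensities and a log10 ratio of Cy5 over Cy3. Their deposited table of significant genes lists 775 probes, each with its ratio, its p-value and a fold change score. The deposited series matrix holds log10 ratios of unstated origin. They had a slope of 1 or -1 on the scanner's ratio and so run as CLA over control. Their column medians were 0.0042, 0.00034, -0.0063 and -0.0068. Foreground intensity was corrected by normexp (offset 50) and loess-normalized within arrays (limma 3.58.1, R 4.3.3). The 1075 control spots per array and spots with outlier flags were left out. Probes well above background in 1 diet on at least 2 arrays and measured on at least 3 were tested. Of 20868 probes, 8947 were named by RefSeq accession through the GRCm38.p6 table and 246 by a current and 259 by an older symbol. The brightest probe stood for a gene. Limma's moderated test had an intercept per gene for the dye and diet coded by orientation, with Benjamini-Hochberg adjustment over all 20094 features and a threshold of 0.05. Channel levels were taken after Aquantile normalization. Code was tested on simulated data. The number of arrays limits the precision. Named were all members, the 3 genes of each list with the smallest p and the 3 genes nearest to Hamp. Others of the lists were chosen for their role or their p at equal dye size, after their values were seen. Members and lists were chosen with earlier results of these data known.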

Additional observations from a re-analysis of the deposited data

Results flagged for a closer look

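Hpx on array 1, at -0.634 (log2 CLA over control as measured), lay far from the 3 other arrays, at 0.287 to 0.366. The gap was 0.921 of the whole range, above Dixon's 95% critical value for 4 values. Chance flags about 1 in 20 such sets, and 8 genes were looked at.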

How the results depend on the processing

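Of 14 alternatives, 3 (no dye term, no filter, every probe) repeat the reported estimates of the 8 genes by construction, and the series matrix repeats the processed signals. In the other 10, Hamp, Ftl1, Hfe and Tfrc kept their direction. With median centring Hamp was called at -0.61, and Trf (-0.0697), Hpx (-0.172) and Cp (-0.159) changed sign. Equal spread between arrays turned Slc40a1 (0.0563) and Hpx (-0.0162), and a dye effect of equal size turned Slc40a1 (0.0662) and Trf (-0.00825). Leaving out 1 array gave -0.159 to 0.0769 for Slc40a1, -0.154 to 0.336 for Hpx and 0.301 to 0.517 for Ftl1, which was called without array 3. The 7 higher and 7 lower genes over the whole array became 28 and 112 with median centring, and 0 and 0 without background subtraction, with offset 16, processed signals, series matrix values, equal spread, no dye term or a dye effect of equal size (limma, 130 to 1798 higher and 162 to 1599 lower at an unadjusted p under 0.05). Leaving out 1 array gave 2 to 62 higher and 0 to 20 lower. With median centring the list medians were -0.116 for copper, -0.189 for heme, -0.0101 for hepcidin control and -0.156 for iron-sulfur genes. Heme genes stood at -0.0138 with equal spread and -0.0321 with a dye effect of equal size, and iron transport genes at -0.0175 without background subtraction and -0.0457 with a dye effect of equal size. Leaving out 1 array gave medians of -0.0195 to 0.0999 for copper, 0.0355 to 0.0832 for hepcidin control and -0.0536 to -0.0297 for iron transport. The causes were not tested. No slide or scan date was fitted as a block, since each array was on its own slide and array 2 alone had its image extracted on another day. That day and array 2 cannot be told apart. Tfrc, near background, is limited by signal.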
